A study of Mus musculus with 14 samples.

Results

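Hearts of young mice that received the transcription factor MEF2A were compared with hearts that received no virus. The comparison took the 4 libraries labelled MEF2A and the 5 labelled Control, 9 of the 14 libraries of the series. They were chosen by label alone, and no expression value entered the choice. All mice were wild-type ICR, an outbred strain. MEF2A mice were given AAV9:cTnT-hMEF2A, an adeno-associated virus that carries human MEF2A behind the cardiac troponin T promoter, which is active in cardiomyocytes. The dose was 1E11 genome copies by intraperitoneal injection at P7, and hearts were taken 5 days later, at P12. Control mice received no AAV, so no group carried a virus without a transgene, and effects of the virus and of MEF2A cannot be told apart. The remaining libraries came from mice given YAP5SA, an active form of the growth regulator YAP, alone (3 libraries) or together with MEF2A (2 libraries). These mice were given 1E11 genome copies of each virus at P7, and hearts were taken at P12. RNA came from nuclei enriched for PCM1, a protein of the cardiomyocyte nuclear surface, and libraries were polyA-selected and non-directional.

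MEF2 proteins are MADS-box transcription factors that bind an A- and T-rich sequence in the control regions of many muscle genes. In the heart they are known for driving genes of contraction and energy metabolism, and class II histone deacetylases hold them in check. In the second week after birth, mouse cardiomyocytes stop dividing, enlarge, and shift to fatty acids as fuel.

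Libraries held 16171068 to 24027622 counts, and 17987 of 54446 genes had enough counts to be tested. Labels gave 2 batches: Controls 1 and 2 and MEF2A 1 and 2 were in batch 1, and Controls 3, 4 and 5 and MEF2A 3 and 4 were in batch 2. Several Control libraries stood apart. Mitochondrially encoded transcripts took 60.7% of the counts in Control 1 and 67.5% in Control 2, but 5.54%, 6.34% and 13.9% in Controls 3, 4 and 5. In MEF2A 1 to 4 the share was 14.8%, 16.3%, 15.7% and 23.2%. The means, 30.8% ± 30.7 (SD, n = 5) in Control and 17.5% ± 3.85 (SD, n = 4) in MEF2A, gave p = 0.444 by an exact two-sided permutation test (smallest possible 0.00794). Without Controls 1 and 2 the Control mean was 8.59% ± 4.60 (SD, n = 3), and every MEF2A library was above every Control. The exact two-sided permutation p was then 0.0286, the smallest this design allows. Those 2 Controls were left out for their high share, the value under test, so this p supports nothing. The test had no batch term, and the Controls left were all in batch 2. Within batch 1 both MEF2A libraries were below both Controls, and within batch 2 both were above all 3. By Xist and Y-linked transcripts, Controls 1, 2 and 3 and MEF2A 4 were male and the others female, so in batch 1 sex and treatment cannot be told apart. Nothing in the labels states that libraries came from separate mice, so the p-values rest on the spread between libraries, which may be technical.

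Cardiomyocyte markers were abundant in every library. The 12 markers summed to 55721 to 99044 CPM (counts scaled to a common library total with TMM, edgeR's trimmed mean of M-values) in Control and 91207 to 97625 in MEF2A. All 12 were detected in all 9 libraries. Other cell types were also present: 12 fibroblast markers summed to 1087 to 1879 CPM in Control and 1156 to 1718 in MEF2A, and 12 endothelial markers to 465.6 to 1202 and 565 to 662. The 14 macrophage markers summed to 58.4 to 226 CPM in Control and 71.8 to 112 in MEF2A. Of 14 skeletal muscle markers, Myod1, Myh4, Tnnc2 and Pvalb were at 0 in all 9 libraries. In bulk RNA, fewer cells of a type and less RNA per cell cannot be told apart.

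Mouse Mef2a, the endogenous counterpart of the transgene, was at 541, 572, 607, 550 and 509 CPM in Controls 1 to 5 and at 623, 612, 569 and 580 in MEF2A 1 to 4. The groups overlapped, and the log2 fold change (positive where MEF2A was higher) was 0.07 ± 0.17 (SE), edgeR adjusted p = 0.958. Reads of the human transgene need not count at the mouse gene, so this level is no check of delivery, and antisense reads of Lysmd4 cannot be separated from Mef2a. None of the other 3 family members passed: the log2 fold change was 0.95 ± 0.84 for Mef2b, -0.02 ± 0.30 for Mef2c and 0.08 ± 0.19 for Mef2d. Mef2b was below 3 CPM in every library.

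Only 3 genes passed edgeR's quasi-likelihood test at an adjusted p under 0.05, and all 3 were higher in MEF2A: Slc38a3, Intu and Pde7a. They make up 0.0167% of the 17987 genes tested, and 0 genes (0.0%) were called lower. At an unadjusted p under 0.05 there were 616 higher genes (3.42%) and 692 lower genes (3.85%). The groups did not overlap, with all 4 MEF2A libraries above all 5 Controls, for 337 genes (1.87%), and the reverse held for 170 genes (0.945%).

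Slc38a3 encodes a sodium-coupled transporter of glutamine and other neutral amino acids, and lies at chr9:107650634-107669530 on the minus strand (GRCm38). Its level was 15.4, 24.4, 8.16, 13.3 and 11.0 CPM in Controls 1 to 5 and 30.2, 48.5, 40.4 and 47.8 CPM in MEF2A 1 to 4. Every MEF2A library was above every Control, and Control 2 was the nearest. Slc38a3 rose by 1.57 ± 0.25 on the log2 scale (edgeR adjusted p = 0.0496). The log2 fold change was 0.95 ± 0.32 in batch 1 alone and 2.04 ± 0.28 in batch 2 alone. A test of the difference between batches (batch 2 minus batch 1) gave 1.07 ± 0.45. Its edgeR p was 0.0330 unadjusted and 0.266 adjusted over all genes tested.

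Intu encodes inturned, a planar cell polarity effector needed to build cilia, and lies at chr3:40531286-40704774 on the plus strand. It was at 40.8, 40.9, 44.0, 30.1 and 38.8 CPM in the Controls and at 80.0, 77.0, 78.2 and 82.6 CPM in MEF2A. The 4 MEF2A values lay close together, well above the highest Control. Intu rose by 1.03 ± 0.16 on the log2 scale (edgeR adjusted p = 0.0496). It was 0.91 ± 0.20 higher in batch 1 alone and 1.11 ± 0.22 in batch 2 alone.

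Pde7a encodes a phosphodiesterase that breaks down cyclic AMP, and lies at chr3:19223108-19311322 on the minus strand. It was at 65.8, 60.7, 72.3, 79.6 and 79.6 CPM in the Controls and at 124, 133, 153 and 144 CPM in MEF2A. Again no Control reached a MEF2A library. Pde7a rose by 0.96 ± 0.16 on the log2 scale (edgeR adjusted p = 0.0496), but an annotated antisense transcript, Gm16093, overlaps its exons and could share its reads. The change was 0.99 ± 0.21 in batch 1 alone and 0.96 ± 0.19 in batch 2 alone.

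These calls sat close to the threshold. Over 26 alternative settings, Slc38a3 was called in 10, Intu in 7 and Pde7a in 6, while the log2 fold change kept its sign, at 0.95 to 2.04, 0.91 to 1.27 and 0.79 to 1.15. Leaving out Control 1, 4 or 5, or MEF2A 2, 3 or 4, ended all 3 calls, with edgeR adjusted p up to 0.212 for each gene. Leaving out Control 2 or MEF2A 1 kept only Slc38a3. With a term for sex, the edgeR adjusted p was 0.0334 for Slc38a3, 0.0275 for Intu and 0.0770 for Pde7a. Over all 26 settings the adjusted p from edgeR, DESeq2 or limma ran from 9.36e-07 to 0.519, from 2.71e-06 to 0.765 and from 1.38e-06 to 0.981.

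**Figure D1:**
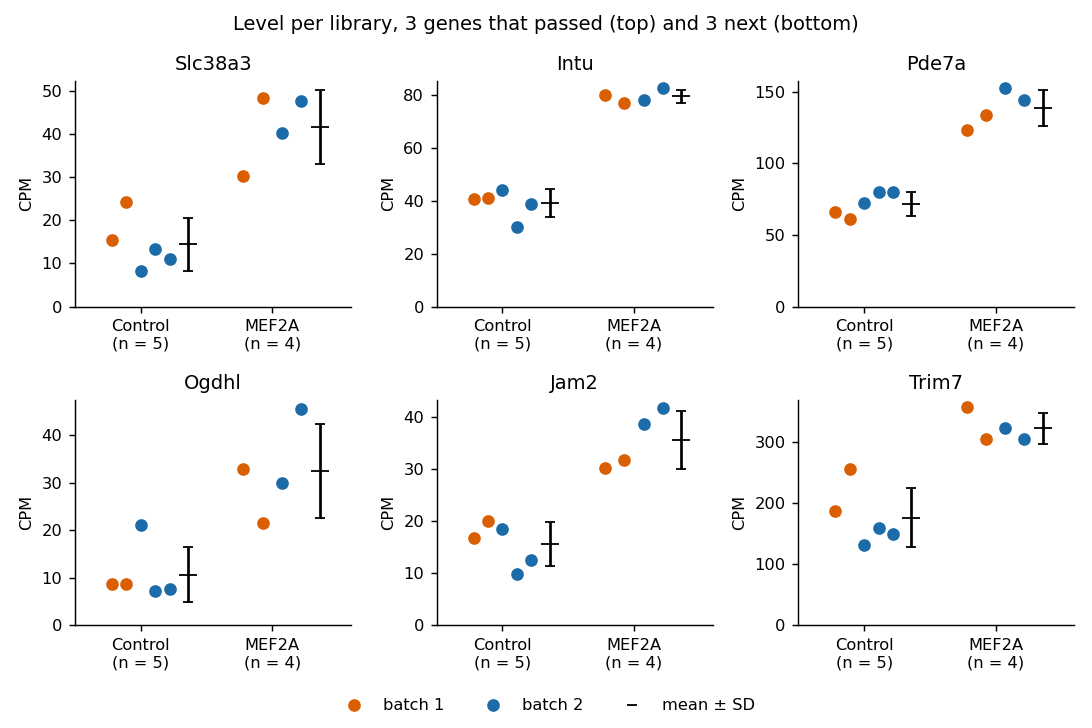
Level in CPM (y axis, from 0) of 6 genes in 5 Control and 4 MEF2A libraries, each point 1 library, coloured by batch, with the group mean ± SD beside the points. The top row holds Slc38a3, Intu and Pde7a, the genes that passed the test. The bottom row holds Ogdhl, Jam2 and Trim7, the next by p among genes that met the rule on named genes. In all 6, no Control reaches a MEF2A library.

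Behind these 3 stood 17 genes with the next smallest p among those with a mean log2 CPM of at least 1 and every MEF2A library on one side of its batch's Control mean. None of the 17 passed (edgeR adjusted p 0.102 to 0.330). With a term for sex, Ogdhl and Jam2 passed (edgeR adjusted p = 0.0197 for each). The 17 are described here for their size and spread. Of the 20 genes in all, 13 were higher and 7 lower in MEF2A, and for 15 the groups did not overlap. The rule chose genes for such separation, so these counts support nothing.

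Among the higher genes, Ogdhl, a relative of the oxoglutarate dehydrogenase of the citric acid cycle, was at 8.72, 8.602, 21.0, 7.19 and 7.54 CPM in the Controls and 32.9, 21.6, 29.9 and 45.5 in MEF2A. Control 3 alone came near the MEF2A range. The log2 fold change of Ogdhl was 1.64 ± 0.29 (edgeR adjusted p = 0.102). Jam2, a junctional adhesion molecule, was at 9.88 to 19.9 CPM in Control and 30.2 to 41.8 in MEF2A (log2 fold change 1.20 ± 0.22). Trim7, a ubiquitin ligase that binds glycogenin, was at 131 to 256 CPM against 304 to 358 (0.87 ± 0.17), with antisense transcripts over its exons.

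Several of the higher genes encode proteins of the cytoskeleton or of muscle. Mylk4, a myosin light chain kinase, was at 14.05, 12.5, 13.99, 11.9 and 10.9 CPM in the Controls and 22.5, 20.5, 33.5 and 28.1 in MEF2A (log2 fold change 1.05 ± 0.22). Limch1, an activator of non-muscle myosin, was at 145, 151, 79.2, 146 and 143 CPM against 211, 225, 242 and 243 (0.79 ± 0.18). For both genes the groups were apart, and for Limch1 Control 3 was far below the other Controls. The actin nucleator Cobl had a log2 fold change of 1.08 ± 0.24, and the membrane-bending protein Pacsin3 one of 0.86 ± 0.19. The cell death regulator Bad (1.55 ± 0.32), the ERK phosphatase Dusp5 (1.69 ± 0.38) and the meiotic chromosome protein Sycp2 (1.10 ± 0.25) completed the higher genes. Bad, Dusp5 and Pacsin3 overlap antisense exons of other genes.

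Of the 7 lower genes, 3 act at the mitotic spindle: Ckap2l (log2 fold change -2.45 ± 0.55), Sapcd2 (-2.13 ± 0.43) and Ttk, a spindle checkpoint kinase (-1.99 ± 0.44). Ttk was at 26.6, 17.6, 3.43, 27.7 and 15.9 CPM in the Controls and 6.37, 4.49, 4.89 and 3.04 in MEF2A. Control 3 lay inside the MEF2A range, and the other 4 Controls lay above it. The secreted growth factor Ptn (-2.20 ± 0.47) was at 2.12 CPM in Control 3, below all MEF2A libraries, at 12.01 to 21.6 in the other Controls and at 2.25 to 3.05 in MEF2A. Psat1, an enzyme of serine synthesis, was at 17.8, 14.2, 17.4, 19.1 and 14.3 CPM in the Controls and 7.51, 6.86, 9.59 and 5.41 in MEF2A. Here the groups were apart with Control 3 included (-1.18 ± 0.24, edgeR adjusted p = 0.209). Tusc3, a subunit of the oligosaccharyltransferase, had a log2 fold change of -2.02 ± 0.47. Myh8, the perinatal myosin heavy chain of skeletal muscle, was at 2.65 to 4.95 CPM in Control and 0.686 to 2.25 in MEF2A (-1.51 ± 0.33).

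**Figure D2:**
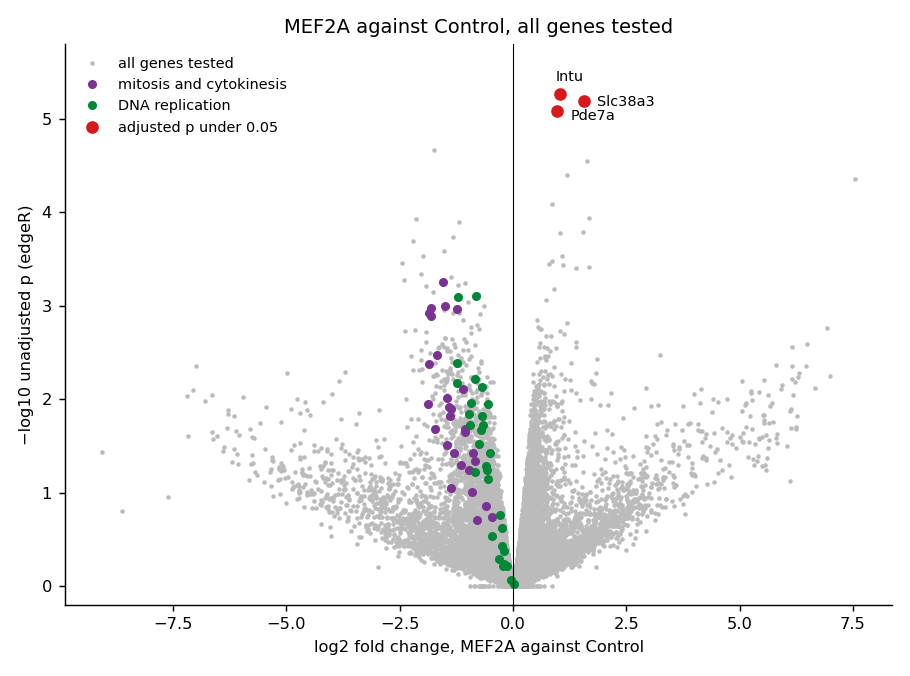
Each point is 1 of 17987 genes, with its log2 fold change of MEF2A against Control on the x axis and the -log10 of its unadjusted edgeR p on the y axis. Slc38a3, Intu and Pde7a (red) are the 3 genes with an adjusted p under 0.05; all 28 mitosis and cytokinesis genes (purple) and 29 of 30 DNA replication genes (green) lie left of 0 without passing.

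Promoter sequences bear on these genes because the virus carries a DNA-binding factor. RefSeq promoters (GRCm38.p6) were searched, in the 250 bases before each start site, for the MEF2 consensus: a pyrimidine, TA, 4 letters that are each A or T, TA, and a purine. This pattern reads the same on both strands. Of 12327 tested genes with a promoter, 271 (2.20%) held a match. Of the 20 genes, 16 had a promoter and 3 a match: Mylk4, Limch1 and Myh8. Mylk4 and Limch1 were higher in MEF2A and Myh8 lower. The 3 matches are shown with 10 bases on each side, 5′ to 3′ on the strand of the gene, with the match in capitals.
Mylk4, minus strand, chr13:32784048-32784077: ggcctggcatCTAAAATTAAtattcttccc
Limch1, plus strand, chr5:66745668-66745697: tcctggcaggTTATTTTTAGttgggggagg
Myh8, plus strand, chr11:67277015-67277044: ccttgtcaaaTTATTTATAGgagattggtt
Centres of the matches lay 98, 206 and 94 bases before the start site, in that order. Intu was the one gene past the test with a promoter in the table, and its 250 bases, shown because the search covered exactly these letters, held 0 matches. This window lies inside the gene span given above, so the bases before the annotated gene start were not searched.
Intu, plus strand, chr3:40540517-40540766: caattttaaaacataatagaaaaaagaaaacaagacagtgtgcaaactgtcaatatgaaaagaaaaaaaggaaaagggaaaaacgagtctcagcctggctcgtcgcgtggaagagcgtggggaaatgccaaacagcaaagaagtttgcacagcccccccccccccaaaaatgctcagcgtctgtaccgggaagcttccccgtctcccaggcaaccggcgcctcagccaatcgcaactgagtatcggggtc
Among genes at an unadjusted p under 0.05, 16 of 446 higher genes with a promoter (3.59%) and 8 of 485 lower genes (1.65%) held a match, beside 2.20% of all. Of 20 muscle genes linked to MEF2 factors with a promoter, 4 held a match, so most of these genes also had none in the window. A match is a stretch of letters, not a measured binding site.

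Gene lists gave a wider view, and within them only Pde7a, in the calcium cycling list, passed the test. Other members are named for their p, non-overlap or level, a choice shortened after values were seen. They are not typical of their lists. Of all 17987 genes tested, 9249 were higher and 8738 lower, and counts of higher members are to be read beside this. The median log2 fold change over all genes was 0.02. With library totals in place of TMM this median was 0.21. Some list medians shifted by more under that scaling, such as antigen presentation genes, from -2.03 to -1.39.

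Muscle and MEF2 genes sat slightly on the higher side. Of 23 MEF2 factors and coregulators, 19 were higher, with a median log2 fold change of 0.11. At an unadjusted p under 0.05, 4 were higher, beside 3.42% of all genes. The coactivator Ncoa2 was at 50.05 to 53.1 CPM in Control and 63.3 to 71.6 in MEF2A, with no overlap. Hdac9, whose product is a class II deacetylase that represses MEF2, was at 20.4 to 31.3 and 31.4 to 47.1 CPM (log2 fold change 0.60 ± 0.29, unadjusted p = 0.0539). Of 27 muscle genes linked to MEF2 factors, 17 were higher, and the median was 0.11, turning to -0.13 without Controls 1 and 2. Fhl2, a LIM-domain protein of the sarcomere, was at 930 to 1127 CPM in Control and 1298 to 1556 in MEF2A (0.45 ± 0.15, edgeR adjusted p = 0.595).

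With all libraries, contractile and calcium-handling genes were mostly on the higher side as well. Of 12 cardiomyocyte markers, 11 were higher, with a median log2 fold change of 0.35 over all libraries and 0.15 without Controls 1 and 2. Tnnt2, cardiac troponin T, was at 9454 to 14325 CPM in Control and 14802 to 18840 in MEF2A (0.57 ± 0.22). Of 17 sarcomere genes, 13 were higher, with a median of 0.21. Of 23 genes of calcium cycling and excitation-contraction coupling, 16 were higher, also with a median of 0.21, which was -0.02 without Controls 1 and 2. Ryr2, the calcium release channel, was at 725, 808, 686, 776 and 953 CPM in the Controls and 1117, 1202, 929 and 1514 in MEF2A (0.60 ± 0.17, edgeR adjusted p = 0.576). MEF2A 3 lay below Control 5, and the other MEF2A libraries lay above all Controls. Jph2, which holds the sarcoplasmic reticulum to the cell membrane, was at 90.6 to 149 and 153 to 180 CPM (0.43 ± 0.16). Of 22 costamere and Z-disc genes 13 were higher and 9 lower, with a median of 0.12, and of 14 intercalated disc genes 9 were higher and 5 lower, with a median of 0.10 (-0.11 without Controls 1 and 2). In these lists, Itgb1bp2 (melusin) was at 456 to 772 and 794 to 1187 CPM (0.61 ± 0.18), and the desmosomal cadherin Dsc2 at 80.1 to 86.3 and 105 to 155 (0.60 ± 0.24). Each had the largest log2 fold change of its list, and the lowest members of the same lists were at -0.86 and -1.24. The gap junction gene Gja5 was at 2.04 to 6.13 CPM in Control and 1.31 to 1.62 in MEF2A (-1.24 ± 0.52), with no overlap, and antisense reads of Gpr89 cannot be separated from it. None of the 3 passed. Of 21 cardiac transcription factors 12 were higher and 9 lower, with a median of 0.04 (-0.20 without Controls 1 and 2). Among them, Thrb, a thyroid hormone receptor, was at 37.4 to 76.1 and 82.6 to 129 CPM (0.82 ± 0.29). This was the largest log2 fold change of that list, and the lowest was -0.72.

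With all libraries, lists of fatty acid, TCA cycle and glycolysis genes had medians near that of all genes. The median log2 fold change was 0.13 for 30 genes of fatty acid uptake and oxidation (-0.22 without Controls 1 and 2). It was 0.09 for 28 genes of the TCA cycle and pyruvate entry, and 0.07 for 28 genes of glycolysis, glycogen and lactate. Fatty acid genes differed in direction between batches. Their median was 0.62 in batch 1 alone (6 of 30 lower) and -0.16 in batch 2 alone (22 of 30 lower). Atrial cardiomyocyte markers had a median of -0.35, with 8 of 10 lower. Their mean log2 CPM was 3.09, 4.73, 4.60 and 3.51 in MEF2A 1 to 4 and 4.31 to 4.79 in Control. MEF2A 1 and 4 were below all Controls, and MEF2A 2 and 3 lay within the Control range.

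Genes of cell division lay lower in MEF2A under each setting given here. All 28 mitosis and cytokinesis genes were lower in MEF2A, with a median log2 fold change of -1.36 and a range of -1.88 to -0.47. At an unadjusted p under 0.05, 21 were lower, beside 3.85% of all genes. The count called was 0 of 28, beside 0.0% called lower of all genes. The mean log2 CPM of the list was 4.11, 3.67, 1.88, 4.75 and 4.13 in Controls 1 to 5 and 2.72, 2.05, 3.06 and 2.65 in MEF2A 1 to 4. Controls 1, 2, 4 and 5 were above all 4 MEF2A libraries, and Control 3 was below all of them. The median was -1.59 in batch 1 alone, -1.03 in batch 2 alone, -1.20 without Controls 1 and 2, -1.45 with a term for sex and -1.19 with library totals.

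Single members show the same layout. Mki67, a marker of cycling cells, was at 221, 155, 46.4, 360 and 195 CPM in the Controls and 70.6, 32.8, 112 and 85.04 in MEF2A (log2 fold change -1.39 ± 0.49, edgeR adjusted p = 0.612). Racgap1, needed for cytokinesis, was at 27.2, 25.0, 9.01, 52.3 and 36.5 CPM and at 10.6, 8.61, 13.1 and 8.14 (-1.54 ± 0.36). In both, Control 3 lay within the MEF2A range. The mitotic kinase Cdk1 (-1.50 ± 0.37), its cyclin Ccnb1 (-1.88 ± 0.63), the checkpoint kinase Bub1 (-1.80 ± 0.45) and the spindle motor Kif11 (-1.81 ± 0.46) were lower by more than a factor of 2 and did not pass.

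DNA replication genes were lower by less. Of 30 members, 29 were lower and 0 were called. At an unadjusted p under 0.05, 15 were lower, beside 3.85% of all genes. For 4 members all MEF2A libraries were below all Controls, beside 0.945% of all genes. The median log2 fold change was -0.58, with -0.61 in batch 1 alone, -0.55 in batch 2 alone and -0.36 with library totals. Rrm1, a subunit of ribonucleotide reductase, was at 31.0, 23.2, 26.1, 30.6 and 21.4 CPM in the Controls and 19.4, 15.9, 14.96 and 11.1 in MEF2A (-0.81 ± 0.20, edgeR adjusted p = 0.401). Chaf1b, which lays histones on new DNA, was at 11.7, 11.9, 6.12, 12.3 and 10.5 CPM and at 5.28, 3.62, 4.60 and 4.43 (-1.22 ± 0.30). The licensing factors Cdt1 (-0.55 ± 0.19) and Cdc6 (-0.97 ± 0.36) also had no overlap. Of 20 cyclins, their kinases and inhibitors, 13 were lower, with a median of -0.36, and Ccne1, the cyclin of S-phase entry, was at 4.19 to 9.85 CPM in Control and 2.50 to 3.93 in MEF2A.

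How many of these genes passed depended on Control 3. Without it, edgeR called 34 genes higher (0.192% of 17680) and 67 lower (0.379%). Of the 67, 17 were in the mitosis list and 1, Chaf1b, in the replication list. All 17 were of the 28 members described above, whose list median was then -1.61. Mki67 then had an adjusted p of 0.0128 by edgeR, Racgap1 one of 0.00267 and Cdk1 one of 0.0156. The 67 were chosen by leaving out this library, and Control 3 was the lowest Control in 65 of them, against 29.2% of all genes. With Control 3 included, all 101 genes had the same direction and 92 an unadjusted p under 0.05. Both fits share all other libraries, so this agreement was nearly fixed in advance and supports nothing. Higher genes without Control 3 included the 3 named first, Ogdhl (adjusted p = 0.00267 by edgeR), and Myh7, the slow myosin heavy chain, which was at 601, 430, 1535, 735 and 685 CPM in the Controls and 1322, 1449, 1309 and 1731 in MEF2A. Reads of Myh7 and of its neighbour Myh6 may be shared, and antisense transcripts overlap Myh7.

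Control 3 stood apart in other groups too. Its mean log2 CPM was 0.28 for macrophage markers, against 2.32 to 3.21 in the other Controls and 1.59 to 2.23 in MEF2A, and 1.79 for immediate early genes, against 2.87 to 3.43 and 2.32 to 3.11. In both lists it was the lowest of the 9 libraries. Erythroid markers ran beside the mitosis genes in part of the libraries. Control 2 was an exception, lowest of the 9 libraries for erythroid markers but above all MEF2A libraries for mitosis genes. Their mean log2 CPM was 3.08, 1.49, 1.58, 3.21 and 3.53 in Controls 1 to 5 and 1.53, 1.58, 2.52 and 2.71 in MEF2A 1 to 4, so Controls 1, 4 and 5 were above all MEF2A libraries and Controls 2 and 3 were not. Of 8 markers tested 5 were lower, with a median log2 fold change of -0.84. It was -2.36 in batch 1 alone (3 of 6 called lower, beside 1.76% of all genes) and -0.26 in batch 2 alone. All 10 erythroid markers summed to 342 to 616 CPM in Control and 292 to 582 in MEF2A, and 0 of the 10 were at 0 in all libraries. The part of cell mixture or handling in the mitosis values was not tested.

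**Figure D3:**
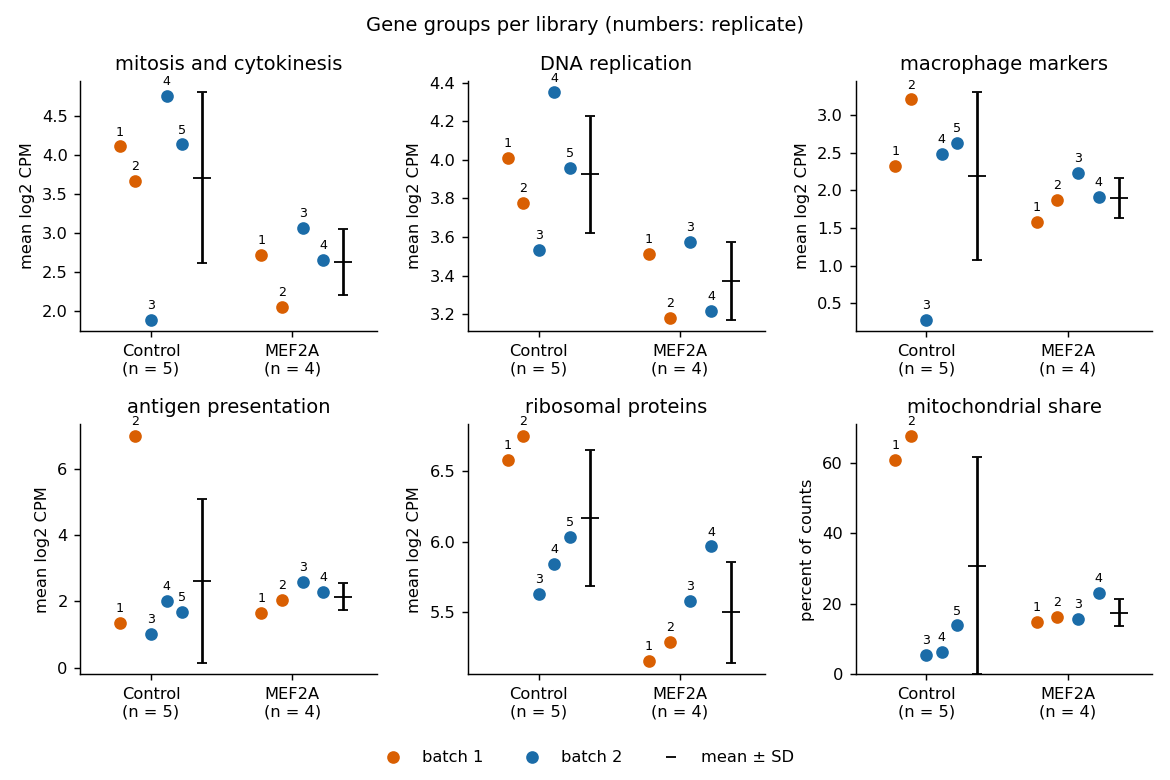
Mean log2 CPM of 5 gene lists and the mitochondrial share of counts in percent (y axes) in 5 Control and 4 MEF2A libraries, each point 1 library numbered by replicate and coloured by batch, with the mean ± SD beside. Control 3 is lowest in mitosis and cytokinesis genes (1.88) and in macrophage markers (0.28), Control 2 is highest in antigen presentation genes (6.996), and Controls 1 and 2 are highest in ribosomal protein genes and in mitochondrial share.

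In other lists the direction turned without Controls 1 and 2. Both were above all other libraries for mitochondrially encoded and ribosomal protein genes. For antigen presentation, interferon response, macrophage and complex I genes, Control 1 lay within the range of the other libraries, and Control 2 was the highest. Leaving out Controls 1 and 2 leaves no Control in batch 1, so this setting overlaps largely with batch 2 alone. The 15 mitochondrially encoded genes had a median log2 fold change of -0.96 with all libraries, 2.17 without Controls 1 and 2, -2.85 in batch 1 alone and 1.62 in batch 2 alone. All 42 cytosolic ribosomal protein genes were lower, with a median of -0.73, which was 0.10 without Controls 1 and 2 and -0.03 in batch 2 alone. Nuclear genes of respiratory complex I had a median of -0.33 with all libraries and 0.09 without Controls 1 and 2. Those of complexes III to V had -0.33 and 0.11. Antigen presentation genes had a median of -2.03 with all libraries and 1.32 without Controls 1 and 2, and interferon response genes -0.42 and 1.42 (0.02 with library totals). In Control 2 the mean log2 CPM was 6.996 for antigen presentation genes, against 1.02 to 2.60 in the 8 other libraries, and 4.83 for interferon response genes, against 1.00 to 2.97. Macrophage markers had a median of -0.58 and, without Controls 1 and 2, of 0.68. With a term for sex, medians also turned for mitochondrially encoded genes (0.10) and interferon response genes (0.23). Those of ribosomal protein (-0.50), complex I (-0.23), complexes III to V (-0.24), antigen presentation (-0.69) and macrophage genes (-0.45) stayed below 0. These lists therefore give no single direction for MEF2A.

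**Figure D4:**
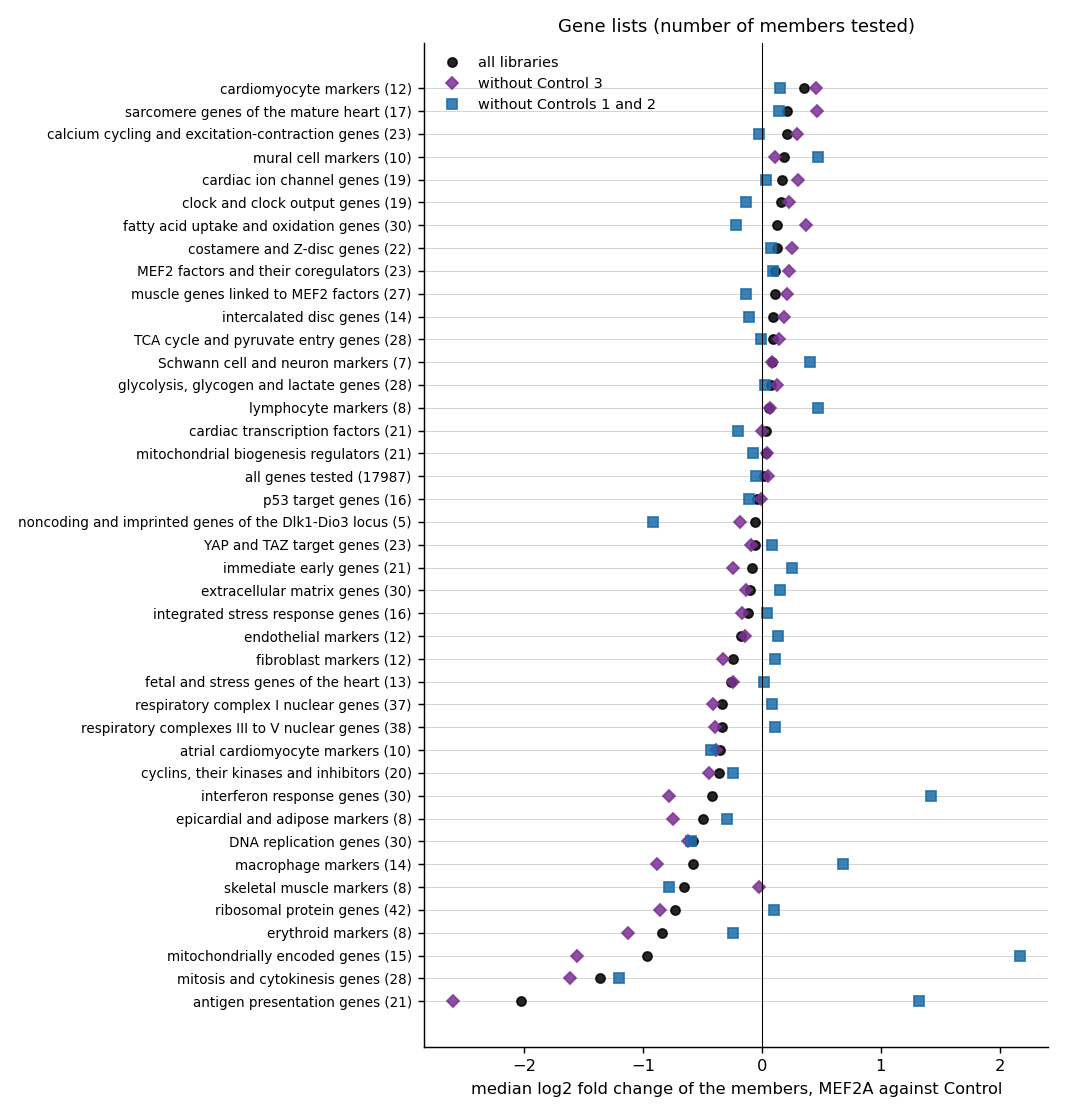
Median log2 fold change of MEF2A against Control (x axis) for 40 gene lists and for all genes, with the number of members tested in brackets; circles use all libraries, diamonds leave out Control 3 and squares leave out Controls 1 and 2. Mitosis and cytokinesis genes stay between -1.61 and -1.20 and DNA replication genes near -0.6, whereas antigen presentation, interferon and mitochondrially encoded genes cross 0.

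The batches taken alone gave largely different genes. Batch 1, with 2 libraries of each group, gave 196 higher (1.21%) and 286 lower genes (1.76%) of 16262. Batch 2, with 3 Controls and 2 MEF2A libraries, gave 18 higher (0.0922%) and 4 lower genes (0.0205%) of 19531. The lists shared 1 gene, 0.207% of the first and 4.55% of the second, and it had opposite directions. Of the 482 genes called in batch 1, 219 (45.4%) had the same direction in batch 2, beside 49.4% of the 15981 genes tested in both. A test of the difference between batches called 176 of 14744 genes (1.19%), 114 with a more positive change in batch 2. Controls 1 and 2 lay outside the range of the other 7 libraries for 150 of the 176 (85.2%), against 18.6% of all genes tested. The 176 held 14 mitochondrially encoded genes and 34 with symbols of cytosolic ribosomal proteins. Of the 20 genes named above, 0 were called by this test.

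Mice given both viruses, against mice given YAP5SA alone, are compared here in libraries that the first comparison did not use. By Xist and Y-linked transcripts, all 3 YAP5SA libraries were male and both libraries with both viruses female, so sex and MEF2A cannot be told apart in this comparison. Each virus was given at 1E11 genome copies, so mice given both received more virus in all than mice given YAP5SA alone. Viral load and MEF2A therefore cannot be told apart either. YAP5SA 3 was also in batch 2, and the other 4 libraries were in batch 1. That comparison had 2 and 3 libraries, and edgeR called 0 of 17987 genes in it (516 at an unadjusted p under 0.05). Slc38a3 was at 10.8, 12.5 and 8.42 CPM with YAP5SA and 16.5 and 18.8 CPM with both. Intu was at 23.96, 26.7 and 30.3, and at 32.0 and 39.9. Pde7a was at 64.6, 77.4 and 58.0, and at 82.0 and 110. In all 3 genes both libraries with both viruses, which are the female ones, were above all 3 with YAP5SA alone, which are the male ones. Their log2 fold changes were 0.61 ± 0.34, 0.42 ± 0.22 and 0.56 ± 0.21, each with an edgeR adjusted p of 1.

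Of the 20 genes, 18 had the same direction with YAP5SA present, beside 61.0% of all genes, and 3 had an unadjusted p under 0.05 there: Jam2 (log2 fold change 1.01 ± 0.30), Pde7a, and Myh8 in the opposite direction (1.12 ± 0.40). Ckap2l, at 0.06 ± 0.69, was the other gene of opposite sign. Both comparisons were fitted with 1 shared batch term. The 20 genes were chosen for small p in the first comparison, which favours larger changes in it than beside YAP5SA. A test of whether the MEF2A change differed with YAP5SA present called 0 of 17987 genes by edgeR (440 at an unadjusted p under 0.05), so smaller values beside YAP5SA are not shown to differ. The lower values of division genes were smaller there: 21 of 28 mitosis genes were lower, with a median log2 fold change of -0.19, and 15 of 30 replication genes, with a median of 0.00.

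**Figure D5:**
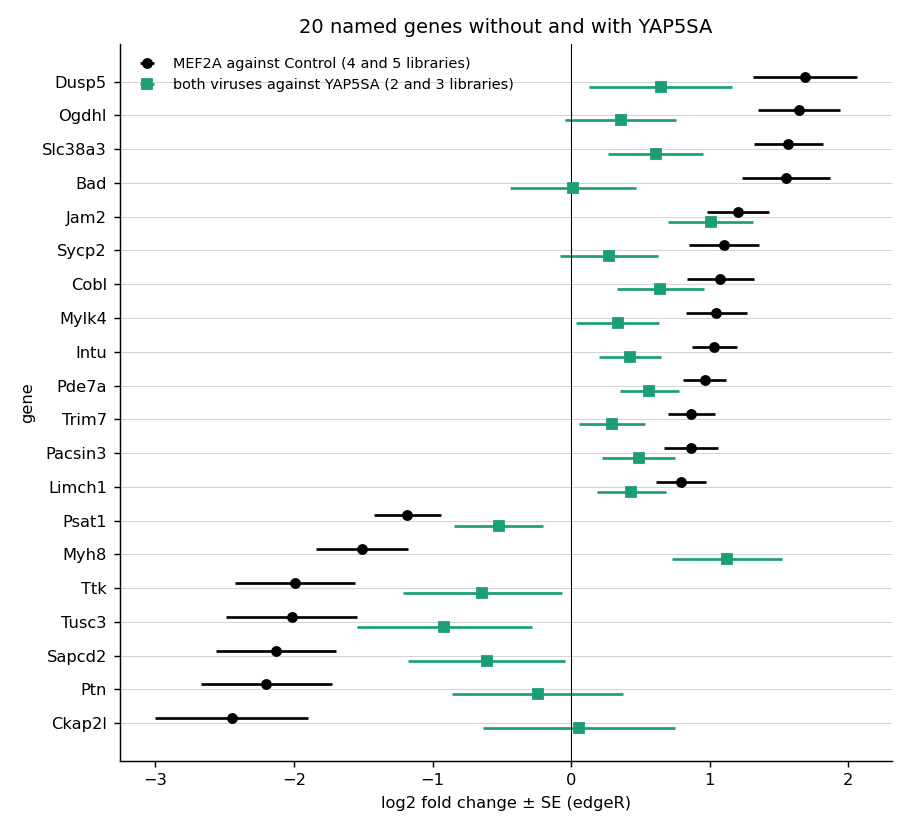
Log2 fold change ± SE (x axis) of the 20 named genes for MEF2A against Control (black circles, 4 and 5 libraries) and for both viruses against YAP5SA alone (green squares, 2 and 3 libraries). Squares lie on the same side of 0 as the circles for 18 genes; Myh8 and Ckap2l are the exceptions.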

How the data were processed

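The deposited table gave raw counts of reads, as whole numbers, for each Ensembl gene and library. Per the submitters' processing notes, STAR, limma and edgeR were used with build GRCm38; versions, counting program, annotation and strand setting are not given in the sources used here. Symbols and coordinates came from GENCODE vM21 on that build (54409 of 54446 genes matched), and promoters from RefSeq. Without strand, reads of overlapping antisense genes cannot be separated.

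Genes were kept by edgeR's filterByExpr (minimum count 10, total 15). edgeR 4.0.16 (R 4.3.3) fitted group and batch over all 14 libraries with TMM scaling and a robust quasi-likelihood test, two-sided, with Benjamini-Hochberg adjusted p under 0.05. All groups share 1 estimate of the spread; the common biological coefficient of variation was 0.503. Log2 CPM used a prior count of 2. Alternatives used limma 3.58.1, DESeq2 1.42.0, other scalings, filters and terms, single batches, and left-out libraries; leaving out Controls 1, 2 and 3 together was chosen after seeing the data. Scripts were tested on simulated counts.

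Named genes were the 4 Mef2 genes, called genes, and genes of the next smallest p up to 20, with mean log2 CPM of at least 1, a proper symbol, and every MEF2A library on the same side of its batch's Control mean; from the 40 lists (745 of 776 genes tested) called members or a few by p, non-overlap or level, shortened after values were seen. Members, lists and tests were chosen with earlier results of these data known. A gene that the rule would name is not reported here.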

Additional observations from a re-analysis of the deposited data

Results flagged for a closer look

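A library was marked where it lay far from the rest of its group, by the gap to its nearest neighbour as a share of the group's range. Of 130 groups tested, 9 were marked; chance marks about 1 in 20 groups. Control 3 was marked 4 times among the Controls: highest for Ogdhl (21.0 CPM, others 7.19 to 8.72), lowest for Limch1 (79.2 CPM, others 143 to 151), and highest in mean log2 CPM for costamere and Z-disc genes (7.40, others 7.03 to 7.12) and for sarcomere genes (10.97, others 10.33 to 10.52). Control 2 was the highest Control for interferon response genes (4.83, others 1.00 to 1.58) and antigen presentation genes (6.996, others 1.02 to 2.02). In the MEF2A group, MEF2A 1 was highest for Sapcd2 (4.41 CPM, others 2.40 to 2.56), MEF2A 2 for Bad (77.3 CPM, others 36.3 to 42.8) and MEF2A 4 for costamere and Z-disc genes (mean log2 CPM 7.35, others 7.26 to 7.28).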

How the results depend on the processing

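Genes called higher in MEF2A than in Control (3 by the test reported) numbered 0 with RLE, upper-quartile or library-total scaling, with limma-voom, with a stricter filter, with mitochondrial, ribosomal and haemoglobin genes removed, and without the batch term; 1 with only the 9 libraries and 1 without Controls 1 and 2; 8 with limma-voom and quality weights; 12 without Controls 1, 2 and 3; 18 in batch 2 alone and 196 in batch 1 alone; 25 with DESeq2; 78 with no filter; and 0 to 34 leaving out 1 library, with 34 without Control 3. Genes called lower (0) numbered 1 without Controls 1 and 2, 4 in batch 2 alone, 46 without Controls 1, 2 and 3, 59 with DESeq2, 280 with no filter, 286 in batch 1 alone, and 0 to 67 leaving out 1 library. With a term for sex, 4 genes were called higher and 0 lower. At an unadjusted p under 0.05, RLE scaling gave 1310 genes, limma-voom 1008, limma-voom with quality weights 1881 and DESeq2 1648. Of DESeq2's calls, 20 had a mean under 1 CPM in both groups, and 83 adjusted p were not given. Replicate numbers do not pair the libraries: deviations of same-numbered libraries correlated at 0.054, -0.0036, 0.064 and -0.092, and a replicate block in place of batch called 0 genes higher. Genes whose change differs between batches (176) numbered 6553 with library totals and 18 (without MEF2A 1) to 591 (without Control 1) leaving out 1 library. With both viruses against YAP5SA, calls numbered 6 in batch 1 alone, 1 with limma-voom and 0 to 227 (without YAP5SA 2) leaving out 1 library; for the difference with YAP5SA present, 1 in batch 1 alone and 0 to 11 (without YAP5SA 2). The mitochondrial share differed by 8.91 percentage points without Controls 1 and 2. For the 24 named genes, 623 alternative values included 18 of opposite sign, none of them called. For the 40 lists, 110 of 1039 medians changed sign. The causes were not tested. With 4 and 5 libraries and this spread, a gene that did not pass is not shown to be unchanged.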

Other observations

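Itgax, an integrin subunit of dendritic cells and macrophages, was chosen after its values were seen. It had 0 counts in all 5 Controls and 21, 7, 20 and 9 counts in MEF2A 1 to 4, which is 0.437 to 1.14 CPM, too low for the rule on named genes (edgeR adjusted p = 0.113). The summed macrophage markers, given above, overlapped between the groups.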
